A study of Mus musculus with 24 samples.

Results

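Titin, the giant spring protein of the sarcomere, is held at the Z-disc by telethonin (Tcap) and alpha-actinin 2 (Actn2). Several small proteins sit along it, and 9 genes of this kind were examined here in the mouse left ventricle. They were chosen by name as the titin-linked stretch sensors, with earlier results of these data known. They are the muscle ankyrin repeat proteins Ankrd1, Ankrd2 and Ankrd23, the muscle LIM protein Csrp3, Tcap, the four-and-a-half-LIM proteins Fhl1 and Fhl2, titin (Ttn) and Actn2. All 9 were found among the 24972 genes of the table. Of these genes, 13058 passed the filter on low values, which asked for 1 TPM (a transcript abundance per length, scaled so that each library sums to 1e+06) or more in 3 or more libraries. All 9 passed, but Ankrd2 did so only through the female MHS group and is therefore described apart.

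As background, titin is stretched in its I-band part when the sarcomere lengthens, and proteins bound there or at the Z-disc take part in signalling of mechanical load. The ankyrin repeat proteins bind the N2A region of titin and also occur in the nucleus. Fhl1 and Fhl2 bind the N2B region, and Csrp3 and Tcap belong to a Z-disc complex at the end of titin. Ankrd1 is known as a gene induced by cardiac load, and mutations of several of these genes cause human cardiomyopathies.

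C57Bl6/J mice of both sexes gave RNA from the left ventricular free wall, and stranded mRNA libraries were made from it. There were 24 libraries in 8 groups of 3. In each sex these were Control at day 28, MHS at day 28, Control at day 56, and MHS + RR at day 56 (written MHS_RR below). MHS is a metabolo-hypertensive stress, for which the treatment tag reads AngII + HFD (angiotensin II and a high-fat diet), and RR is reverse remodeling after it. The labels used give neither the age of the mice, the dose, nor whether a library held 1 mouse or several. Groups were taken from the titles, with which the group tag agrees in every library. For 12 libraries the tags for time and treatment disagree, since MHS libraries of day 28 are tagged 56 days without treatment and the day 56 controls 28 days with treatment. Read by these tags, the comparisons exchange these groups, and the values so obtained are given at the end.

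The depth of the libraries is unknown, because TPM keep no read counts. The number of genes at 1 TPM or more ranged from 12168 to 12585 per library. The ventricular markers (Myh6, Myl2 and 7 others) summed to between 92331 and 115379 TPM in all libraries. The 10 skeletal markers summed to between 13.5 and 46.9 TPM, and Actn3 among them was at most 0.247 TPM. At day 28 the median skeletal sum was 30.3 TPM in male MHS libraries and 14.8 TPM in male controls. In females it was 46.3 TPM under MHS and 19.2 TPM in controls of day 28. The ranges of these sums overlapped in each sex. A total of 5 libraries stood apart. The atrial myosin light chain Myl7 reached 625 TPM in replicate 2 of the female controls of day 28. Female MHS day 28 replicate 3 followed at 125 TPM, and no other library exceeded 57.3 TPM. That MHS library was not counted among the 5. Female MHS_RR replicate 3 held 9.44 TPM of the Y-linked Ddx3y, against at most 0.909 TPM in the other female libraries, and 17.3 TPM of Xist, the lowest of the females. The other 3 were male control day 28 replicate 1, male control day 56 replicate 1 and male MHS_RR replicate 2. In them GC content and transcript length accounted for 28.3%, 31.6% and 27.1% of the deviations from each gene's mean over all 24 libraries. Elsewhere the share was at most 16.2%. Results that rest on these libraries are given with and without them.

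The members lay on very different levels. Per length of transcript, Tcap was the most abundant, with a median of 3884 TPM over the 24 libraries. Csrp3 (2874 TPM), Fhl2 (2513 TPM), Actn2 (1684 TPM) and Ankrd1 (1180 TPM) followed. Ankrd23 had a median of 450 TPM, Ttn of 146 TPM and Fhl1 of 117 TPM. Ankrd2, which is known from skeletal muscle, had a median of 0.525 TPM and never exceeded 1.40 TPM. The spread within groups was also unequal. On the log2(TPM + 1) scale its SD was 0.08 for Csrp3 and Fhl2, 0.09 for Actn2 and 0.14 for Fhl1. It was 0.27 for Tcap, 0.28 for Ankrd23, 0.34 for Ttn and 0.35 for Ankrd1. A difference of the same size was thus easier to resolve for the first set than for the second.

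**Figure D1:**
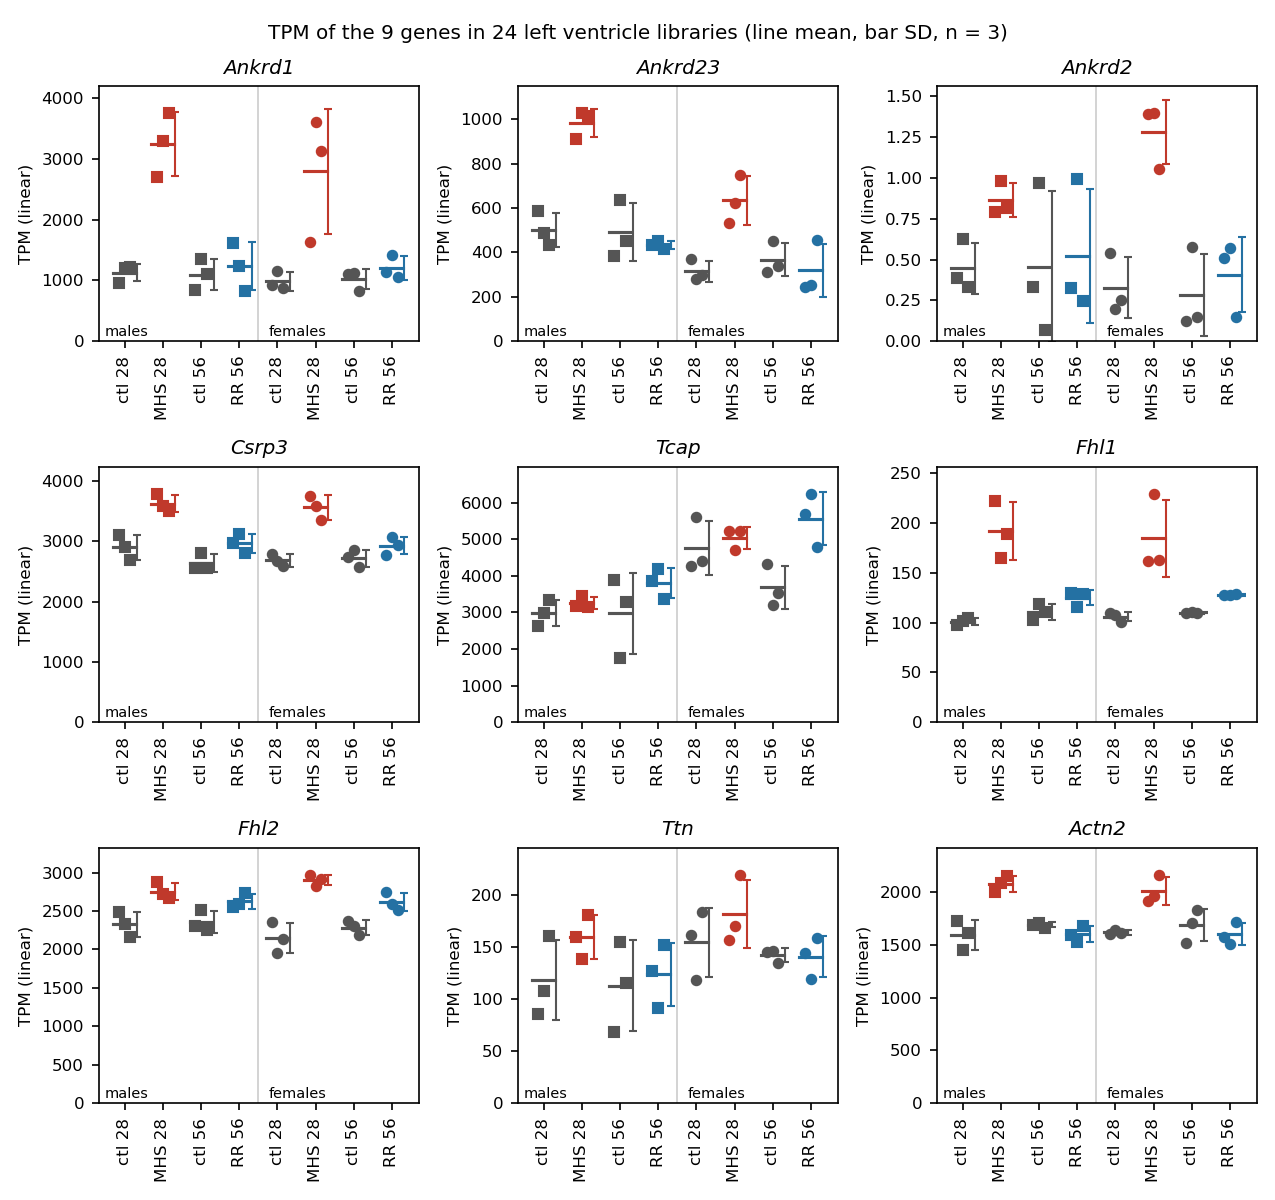
Each point is 1 library, with TPM on a linear axis and the 8 groups along the horizontal axis (ctl, control; RR, MHS_RR; squares, males; circles, females); lines are means and bars SD of 3 libraries (bars of Ankrd2 are cut at 0). Ankrd1, Ankrd23, Csrp3, Fhl1, Fhl2 and Actn2 lie above the controls of day 28 in all MHS libraries of the same sex, and Ankrd2 stays below 1.5 TPM throughout.

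The sequences before the transcription start are shown for Ankrd1, whose window held more than 1 match of a motif, and for the paralogs Fhl1 and Fhl2, which share another. They come from RefSeq (GRCm38.p6), as windows of 300 bases around each annotated start. The table held 12 windows for 8 members, while Tcap is named only. Of each window the 250 bases before the start are printed, 5′ to 3′ on the gene's strand, with motif matches in capitals. In Ankrd1 the capitals are the M-CAT element bound by TEAD factors (searched as CATTCC on both strands). In Fhl1 and Fhl2 they are the CArG box bound by serum response factor.
Ankrd1, chr19:36119845-36120094, minus strand: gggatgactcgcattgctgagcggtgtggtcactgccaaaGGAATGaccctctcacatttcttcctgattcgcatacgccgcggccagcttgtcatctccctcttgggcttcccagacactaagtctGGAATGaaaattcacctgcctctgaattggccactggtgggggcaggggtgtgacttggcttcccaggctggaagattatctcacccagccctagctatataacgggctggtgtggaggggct
Fhl1, chrX:56779433-56779682, plus strand: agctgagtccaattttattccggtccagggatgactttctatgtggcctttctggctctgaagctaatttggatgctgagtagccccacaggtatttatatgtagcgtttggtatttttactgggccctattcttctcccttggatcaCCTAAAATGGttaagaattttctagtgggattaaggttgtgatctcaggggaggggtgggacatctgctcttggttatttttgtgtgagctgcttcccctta
Fhl2, chr1:43196762-43197011, minus strand: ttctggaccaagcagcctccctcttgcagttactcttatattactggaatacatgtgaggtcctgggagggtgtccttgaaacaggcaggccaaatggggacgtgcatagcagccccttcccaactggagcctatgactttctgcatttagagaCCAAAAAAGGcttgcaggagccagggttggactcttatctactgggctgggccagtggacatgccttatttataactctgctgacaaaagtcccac

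The 300-base window of Ankrd1 held 2 M-CAT matches, both in reverse orientation, at -210 to -205 and -123 to -118 from the start. At least 2 matches, in either orientation, were found in 1.36% of the 32851 windows of all genes, and at least 1 match in 14.7%. Both windows of Ankrd23 and the window of Ttn held 1 match each. A CArG match lay at -102 to -93 in Fhl1 and at -96 to -87 in Fhl2, and the other Fhl2 window held 1 more. This motif was found in 1.63% of all windows. The windows of Csrp3, Actn2 and Ankrd2 held neither M-CAT nor CArG matches. The GATA, MEF2 and TATA motifs were searched too, and were found in 25.4%, 3.19% and 13.6% of all windows. GATA matches lay in windows of Ankrd1, Ankrd23, Fhl1 and Fhl2. MEF2 matches lay in windows of Fhl2 and Ttn, and TATA matches in those of Ankrd2, Fhl1 and Fhl2. A match is only a match of letters and shows no binding.

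The first comparison asked how the members responded to MHS at day 28. Of the 8 members other than Ankrd2, 6 rose in males and 6 in females, and none fell. The same 6 rose in each sex, namely Ankrd1, Ankrd23, Csrp3, Fhl1, Fhl2 and Actn2. Tcap and Ttn did not pass the test in either sex. Calls needed an adjusted p below 0.05 (limma on log2(TPM + 1), two-sided, Benjamini-Hochberg over all 13058 genes). Among all genes, 7.71% were called higher in males and 3.4% in females, and 2.52% and 2.36% lower. In males the background depended on the scaling, with 1007 genes higher to 329 lower as deposited and 665 to 537 after median-of-ratios scaling. The median difference of the 8 members was 0.43 on the log2 scale in males, against 0.08 over all genes tested, and 0.42 in females, against -7.01e-05. Each of the 6 called members had TPM ranges that did not overlap between MHS and control in either sex, whereas 26.7% of all genes did not overlap in males and 23.5% in females.

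Ankrd1 had the largest difference of the 8 members in each sex. The male controls of day 28 held 961, 1205 and 1217 TPM, and the male MHS libraries 2707, 3290 and 3754 TPM. The female controls held 927, 1155 and 867 TPM and the female MHS libraries 1634, 3614 and 3139 TPM. Female MHS replicate 1 was thus well below the other MHS libraries but still above every control. The difference was 1.52 ± 0.26 (SE, log2 scale; adjusted p = 0.000765) in males and 1.44 ± 0.26 (adjusted p = 0.001957) in females. Fitted to the libraries of the comparison alone, the female value had an adjusted p of 0.05721.

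Its relative Ankrd23, which binds the same region of titin, went from 585, 488 and 433 TPM in male controls to 912, 1027 and 1014 TPM under MHS. In females it went from 369, 278 and 299 TPM to 532, 621 and 749 TPM. The female MHS libraries overlapped the male controls, so that the groups separated only within a sex. The differences were 0.98 ± 0.21 (adjusted p = 0.004537) in males and 1.002 ± 0.21 (adjusted p = 0.00615) in females. The annotation places another gene, Gm42417, over Ankrd23 on the same strand, so their reads may be split uncertainly.

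Fhl1, a LIM protein of the N2B region, had tight controls. The 6 control libraries of day 28 lay between 97.4 and 109 TPM. The male MHS libraries held 222, 164 and 189 TPM, and the female ones 162, 229 and 163 TPM. Fhl1 rose by 0.91 ± 0.11 (adjusted p = 3.446e-05) in males and 0.78 ± 0.11 (adjusted p = 0.0002346) in females. Of the members it had the lowest adjusted p in each sex.

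Fhl2, its much more abundant paralog, moved less. In males it went from 2484, 2329 and 2162 TPM to 2871, 2715 and 2669 TPM. In females it went from 2354, 1954 and 2136 TPM to 2964, 2827 and 2915 TPM. The differences were 0.24 ± 0.06 (adjusted p = 0.01863) in males and 0.44 ± 0.06 (adjusted p = 0.0004312) in females. The male call was lost when any of 4 of the 6 male libraries was left out, these being MHS replicates 1 and 2 and control replicates 2 and 3, with an adjusted p of 0.07176, 0.05018, 0.05458 and 0.08173. It was also lost after median-of-ratios scaling (0.17, adjusted p = 0.1944) and GC and length correction (0.20, adjusted p = 0.09395). The symbols Fhl1 and Fhl2 overlap other annotated features (an snRNA, and an antisense pseudogene of Fhl2), and strand use in counting is not given in the sources used here.

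Csrp3, which anchors at the Z-disc and also enters the nucleus, stood at 3107, 2899 and 2697 TPM in male controls and at 3779, 3581 and 3503 TPM in male MHS libraries. The female controls held 2795, 2680 and 2585 TPM and the female MHS libraries 3756, 3591 and 3348 TPM. The rise of 0.32 ± 0.06 (adjusted p = 0.002367) in males and 0.41 ± 0.06 (adjusted p = 0.0005553) in females was small, but larger than the spread. The male call depended on the scaling, with 0.24 (adjusted p = 0.09529) after median-of-ratios scaling of the libraries.

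Actn2, which crosslinks actin and titin at the Z-disc, ranged from 1446 to 1722 TPM in the 6 controls and from 1914 to 2159 TPM in the 6 MHS libraries. It rose by 0.39 ± 0.07 (adjusted p = 0.001201) in males and 0.31 ± 0.07 (adjusted p = 0.009549) in females. Female MHS replicate 3, the library with 125 TPM of Myl7, had the highest value. Without it the female difference was 0.26 (adjusted p = 0.05908). After quantile normalization of all libraries the female difference was 0.23 (adjusted p = 0.08458).

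Tcap did not pass the test. Male controls held 2637, 2996 and 3349 TPM and male MHS libraries 3178, 3450 and 3135 TPM. Female controls held 4279, 5597 and 4408 TPM and female MHS libraries 5217, 4701 and 5216 TPM. The groups overlapped in each sex, with differences of 0.13 ± 0.20 (adjusted p = 0.7573) and 0.09 ± 0.20 (adjusted p = 0.9097). The 95% intervals ran from -0.29 to 0.54 in males and from -0.32 to 0.51 in females, so that a moderate change in either direction was not resolved.

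Ttn itself spread widely among the male libraries. The male controls of day 28 held 85.8, 107 and 161 TPM and the male MHS libraries 159, 139 and 181 TPM. In females the controls held 161, 118 and 184 TPM and the MHS libraries 156, 170 and 219 TPM. The differences were 0.48 ± 0.25 (adjusted p = 0.2657) and 0.24 ± 0.25 (adjusted p = 0.7388). The lowest Ttn values of the 24 libraries, at 68.1, 85.8 and 91.6 TPM, were those of the 3 male libraries with the strongest dependence on GC content and length. The longest annotated Ttn transcript has 106824 bases, against a median of 3338 bases over tested genes. With each library corrected for GC content and length, the mean of both sexes was 0.24 ± 0.08 (adjusted p = 0.03241), compared with 0.36 ± 0.18 (adjusted p = 0.195) without correction. Ttn was thus called only after this correction, and the part of library quality in its values was not tested further.

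**Figure D2:**
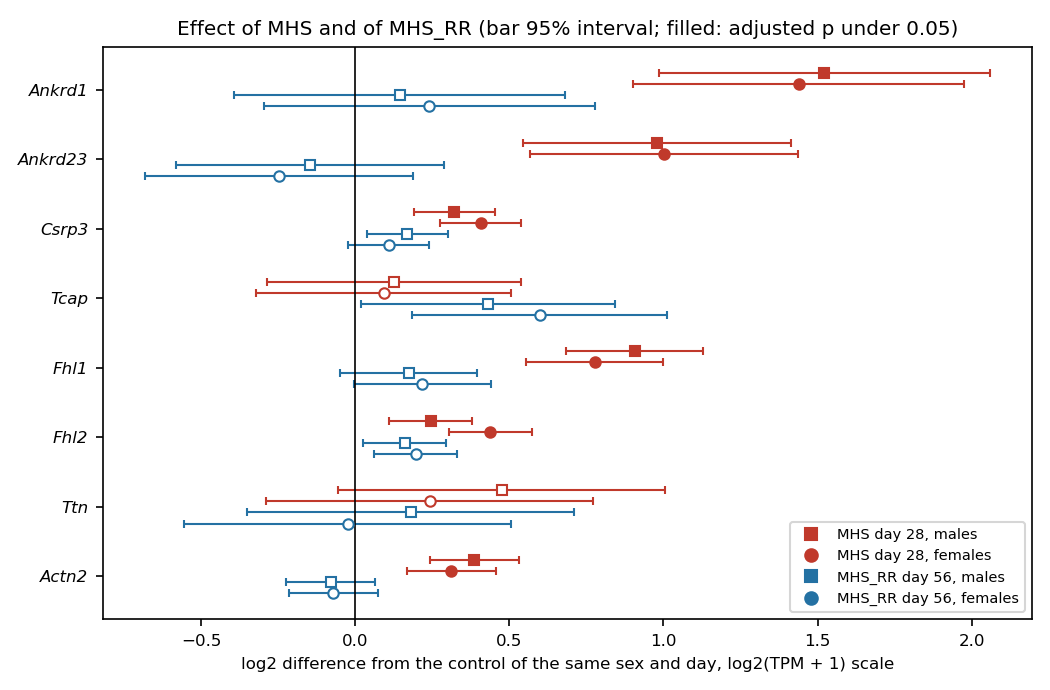
Log2 differences from the control of the same sex and day (horizontal axis) for 8 members, with 95% intervals; red, MHS at day 28; blue, MHS_RR at day 56; filled symbols passed an adjusted p of 0.05. All filled symbols belong to day 28, from 0.24 for Fhl2 in males to 1.52 for Ankrd1 in males, and no symbol of day 56 within a sex is filled.

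Ankrd2 was at 0.792 to 0.982 TPM in the male MHS libraries and at 1.05 to 1.40 TPM in the female ones. The 6 controls of day 28 held between 0.195 and 0.623 TPM. At such levels, and since the female MHS group alone carried it past the filter, its difference is given no weight. Ankrd1 exceeded it in every library, by a ratio of TPM of at least 1173.

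The response did not differ detectably between the sexes. The female minus male difference of the MHS effect was called for none of the members by limma, and for 0.00766% of all genes. At an unadjusted p under 0.05, 4.32% of all genes passed. The largest departure from 0 relative to its error was 0.19 ± 0.09 for Fhl2 (95% interval 0.00 to 0.38; adjusted p = 0.9639). For Ankrd1 it was -0.08 ± 0.36, with a 95% interval from -0.84 to 0.68, so that a sizeable sex difference could not have been seen for that gene.

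Averaged over the sexes, the same 6 members rose at day 28, while 11.6% of all genes were called higher and 6.24% lower. The values were 1.48 ± 0.18 for Ankrd1, 0.99 ± 0.15 for Ankrd23, 0.84 ± 0.08 for Fhl1, 0.36 ± 0.04 for Csrp3, 0.35 ± 0.05 for Actn2 and 0.34 ± 0.05 for Fhl2. All 6 also rose, in each sex, with the 5 libraries that stood apart left out together. These 5 do not include female MHS day 28 replicate 3, without which Actn2 was not called in females. In the same libraries the markers of other cells moved too. Fibroblast markers summed to 1071 to 1537 TPM under MHS and to 701 to 1020 TPM in controls of day 28, with 5 of 7 called higher. Smooth muscle markers summed to 260 to 508 TPM under MHS and to 203 to 287 TPM in these controls, with 2 of 6 called higher. Of the macrophage markers 1 of 6 was called higher, and of the skeletal muscle markers 1 of 4, the latter count also within each sex. No atrial, endothelial, erythroid or adipocyte marker was called in this mean. Of the 9 ventricular markers 4 were called lower and 1 higher, and their sum ranged from 106207 to 113735 TPM in controls and from 92331 to 100151 TPM under MHS. The part of these shifts in the values of the members was not tested. In bulk tissue, fewer cells of a type and less RNA per cell cannot be told apart.

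The second comparison asked what was left at day 56, after reverse remodeling. Within a sex, none of the members was called in MHS_RR against control by limma. The background was 0.0919% of genes called in males and 5.11% in females, and 18% and 22.8% at an unadjusted p under 0.05, which Csrp3, Tcap and Fhl2 passed in males and Tcap and Fhl2 in females. Averaged over both sexes, 3 of 8 members were called higher and none lower. Among all genes 2.11% were called higher and 15.5% lower. That split depended on the scaling, being 275 genes higher to 2026 lower as deposited and 645 to 899 after median-of-ratios scaling. The median difference was 0.16 for the 8 members and -0.06 for all genes. In the same mean of both sexes, 5 of 6 erythroid, 5 of 6 macrophage, 4 of 6 endothelial, 3 of 7 fibroblast and 1 of 9 ventricular markers were called lower, and none of these higher. Their part in the values of the members was not tested.

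For Ankrd1 the groups overlapped at day 56. MHS_RR libraries held 1620, 1244 and 828 TPM in males and 1143, 1417 and 1052 TPM in females. The controls of day 56 held 835, 1346 and 1101 TPM in males and 1111, 1117 and 832 TPM in females. Male MHS_RR replicate 1 and female MHS_RR replicates 1 and 2 lay above all controls of their sex and day, and male MHS_RR replicate 3 below them. The mean difference was 0.19 ± 0.18 (adjusted p = 0.4933).

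Ankrd23 also overlapped, with 432, 452 and 415 TPM in male MHS_RR libraries against 385, 636 and 450 TPM in controls. In females it was at 245, 253 and 457 TPM against 313, 451 and 337 TPM. All 3 of these female MHS_RR values lay outside the range of the controls, 2 below and 1 above it. The highest belongs to the library with Y-linked transcripts. The mean difference was -0.20 ± 0.15 (adjusted p = 0.3738), and -0.44 (adjusted p = 0.05835) with the 5 libraries left out.

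Fhl1 did not pass the test at day 56. It was at 130, 116 and 128 TPM in male MHS_RR libraries, against 103, 118 and 111 TPM in controls, and overlapped them. In females the MHS_RR values of 127, 127 and 129 TPM lay above the control values of 110, 110 and 110 TPM without overlap. The mean difference was 0.20 ± 0.08 (adjusted p = 0.07832), and it passed after median-of-ratios scaling (0.28, adjusted p = 0.01931) or correction for GC content and length (0.29, adjusted p = 0.02515). Actn2, at 1512 to 1717 TPM against 1521 to 1825 TPM, differed by -0.08 ± 0.05 (adjusted p = 0.2965). Ttn differed by 0.08 ± 0.18 (adjusted p = 0.8004) as deposited and by 0.29 ± 0.08 (adjusted p = 0.02974) after GC and length correction.

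Fhl2 was higher at day 56. The male libraries held 2552, 2596 and 2738 TPM under MHS_RR and 2300, 2514 and 2248 TPM in controls. The female ones held 2749, 2594 and 2512 TPM and 2367, 2306 and 2181 TPM. The ranges did not overlap within a sex, as for 19.7% of all genes in males and 27.4% in females. The mean difference was 0.18 ± 0.05 (adjusted p = 0.01245). It was also called without the 5 libraries that stood apart (0.19, adjusted p = 0.04461), but not after quantile normalization (0.13, adjusted p = 0.08207).

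Csrp3 went from 2549, 2807 and 2555 TPM in male controls to 2964, 3121 and 2809 TPM, and from 2739, 2850 and 2567 TPM in female controls to 2779, 3074 and 2937 TPM. On average Csrp3 was higher by 0.14 ± 0.04 (adjusted p = 0.03526). That call did not survive leaving out any of 7 of the 12 libraries, namely MHS_RR replicates 1 and 2 and control replicates 1 and 3 in males, and MHS_RR replicates 2 and 3 and control replicate 3 in females, with differences of 0.12 to 0.14. Without the 5 libraries it was 0.11 (adjusted p = 0.2442). The call was lost in 5 of the 14 alternatives other than single libraries, this one included. The sign changed in 1, the grouping by tags.

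Tcap showed its highest values at day 56. The female MHS_RR libraries held 5698, 6231 and 4777 TPM, all above the female controls at 4324, 3194 and 3539 TPM. The male MHS_RR libraries held 3873, 4196 and 3373 TPM and overlapped the male controls at 3896, 1744 and 3295 TPM. The highest male values, 4196 and 3896 TPM, were in libraries with the strongest dependence on GC content and length. The third such library, male control day 28 replicate 1, held 2637 TPM, the lowest of its group. The longest Tcap transcript has 948 bases and 61.3% GC, against medians of 3338 bases and 49.8%. When each library was corrected for this dependence, Tcap was still among the members called higher at day 56 as the mean of both sexes. The part of the dependence in the values of single libraries was not tested further. The mean difference was 0.51 ± 0.14 (adjusted p = 0.01678). Without female MHS_RR replicate 2 it was 0.47 (adjusted p = 0.05227) and without male MHS_RR replicate 2 it was 0.48 (adjusted p = 0.05178). Without the 5 libraries that stood apart it was 0.65 (adjusted p = 0.01859). No sex difference of the MHS_RR effect was called by limma, for the members or for any of the 13058 genes, of which 3.52% passed an unadjusted p of 0.05.

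The 3 genes most like Tcap over the 24 libraries were Dbp (r = 0.95), Ciart (r = 0.88) and Hlf (r = 0.88), which belong to the output and repressor arms of the circadian clock. For the deviations from the group means the values were 0.97, 0.91 and 0.78. Among 9459 candidate genes, Dbp was closest. Male control day 56 replicate 2 had both the lowest Tcap (1744 TPM) and the lowest Dbp (25.7 TPM), and female MHS_RR replicate 2 both the highest Tcap (6231 TPM) and the highest Dbp (356 TPM). These points share libraries and scaling, and the correlation is a description.

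At day 28 Dbp was at 59.4 to 120 TPM in male controls and 140 to 167 TPM in male MHS libraries, and Ciart at 2.49 to 7.79 TPM and 11.1 to 14.0 TPM. Neither pair of ranges overlapped and neither gene was called in males (0.92 ± 0.46, adjusted p = 0.2293, and 1.48 ± 0.49, adjusted p = 0.06066), while Tcap differed by 0.13 ± 0.20. As the mean of both sexes Ciart was higher under MHS (1.04 ± 0.35, adjusted p = 0.0423) and Dbp was not called (0.54 ± 0.33, adjusted p = 0.2974). At day 56 Dbp was at 216 to 356 TPM in female MHS_RR libraries against 78.7 to 181 TPM in female controls of day 56, and at 146 to 198 TPM against 25.7 to 176 TPM in males. In MHS_RR against control it was higher by 1.13 ± 0.33 (adjusted p = 0.0227) as the mean of both sexes. Ciart was higher by 1.74 ± 0.35 (adjusted p = 0.00312), while Hlf differed by 0.37 ± 0.21 (adjusted p = 0.2174). The hour at which tissue was taken is not given in the sources used here, and the part of these genes in the difference of Tcap was not tested.

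**Figure D3:**
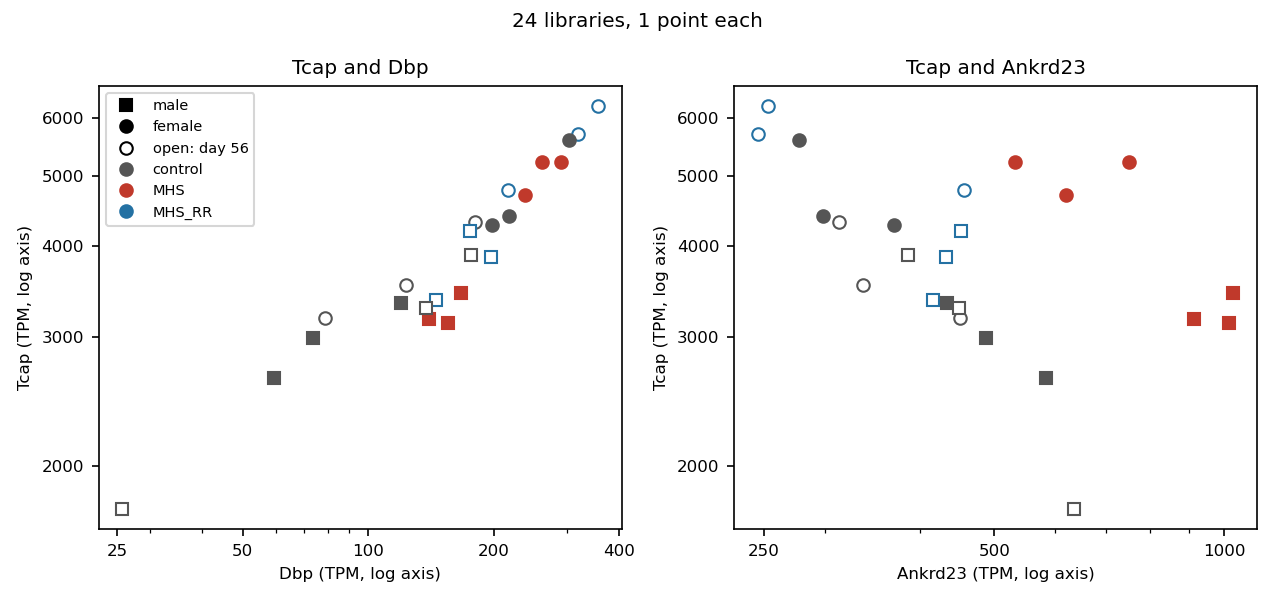
TPM of Tcap (vertical, log axis) against TPM of Dbp (left) and of Ankrd23 (right), both on log axes, with 1 point per library; squares, males; circles, females; open symbols, day 56. Tcap rises with Dbp across all groups (r = 0.95), from 25.7 TPM of Dbp at 1744 TPM of Tcap to 356 TPM at 6231 TPM, and the points of Ankrd23 run the other way within groups.

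Ankrd23 ran opposite to Tcap. Their correlation was -0.48 over the 24 libraries and -0.71 for the deviations from the group means. For these deviations Tcap also had negative values with the other members, Ankrd2 left aside. They were -0.55 for Ttn, -0.49 for Fhl2, -0.34 for Csrp3 and Actn2, -0.33 for Fhl1 and -0.07 for Ankrd1. Over the 24 libraries the same pairs lay between -0.08 for Actn2 and 0.13 for Fhl1. The male control of day 56 with the lowest Tcap had the highest Ankrd23 of its group (636 TPM), and the female control of day 28 with the highest Tcap (5597 TPM) had the lowest (278 TPM). The other members had their own companions. Ankrd1 was most like Itgbl1 (r = 0.95), Mllt11 (r = 0.93) and the matrix collagen gene Col8a1 (r = 0.93). For the deviations from the group means these values were 0.85, 0.51 and 0.73. Fhl1 had Col8a1 first (r = 0.92), then Plp2 (r = 0.92) and the matrix gene Cilp (r = 0.92). Its values for the deviations were lower, at 0.63, 0.36 and 0.46. Csrp3 was nearest to skeletal alpha-actin Acta1 (r = 0.91), and Actn2 to Nrap (r = 0.96), a protein of growing myofibrils and intercalated discs. Ankrd23 was nearest to Klhl34 (r = 0.95) and Fhl2 to the adenine nucleotide carrier Slc25a5 (r = 0.89). With these nearest genes the deviations correlated at 0.69 for Csrp3, 0.85 for Actn2, 0.88 for Ankrd23 and 0.77 for Fhl2. Ttn was nearest to Shoc2, Sbno1 and Macf1 (r = 0.97 each, and 0.96, 0.97 and 0.97 for the deviations). Their longest transcripts have 3965, 10161 and 23495 bases, against a median of 3338 over tested genes. Their GC content is 40.7%, 44.4% and 46.9%, against a median of 49.8%.

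Several pairs of members were correlated across all libraries but much less within groups. Ankrd1 and Fhl1 correlated at 0.88 over the 24 libraries but at 0.33 for the deviations from the group means. For Ankrd1 and Csrp3 these values were 0.83 and 0.05, and for Csrp3 and Fhl1 0.85 and 0.14.

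The third comparison set the effect at day 56 against that at day 28. As the mean of both sexes the effect was smaller at day 56 for Ankrd1 (-1.29 ± 0.26, adjusted p = 0.001997), Ankrd23 (-1.19 ± 0.21, adjusted p = 0.0007005) and Fhl1 (-0.65 ± 0.11, adjusted p = 0.0004146). It was also smaller for Actn2 (-0.42 ± 0.07, adjusted p = 0.0003768) and Csrp3 (-0.23 ± 0.06, adjusted p = 0.01675). These are 5 of 8 members, against 16.6% of all genes called lower and 2.79% higher. The median of all genes was itself at -0.10. All genes split into 364 higher and 2165 lower as deposited, and into 828 and 1103 after median-of-ratios scaling. Under the latter Csrp3 differed by -0.10 (adjusted p = 0.4799) and was no longer called. Fhl2 (-0.16 ± 0.06, adjusted p = 0.08138), Ttn (-0.28 ± 0.25, adjusted p = 0.48) and Tcap (0.41 ± 0.20, adjusted p = 0.1602) were not called, and Tcap alone had a positive value.

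Within the sexes the same comparison called 4 members lower in males and 2 in females, against 7.21% and 2.08% of all genes. In males they were Ankrd1 (-1.38), Ankrd23 (-1.13), Fhl1 (-0.73) and Actn2 (-0.47), and the median of all genes was at -0.11. In females they were Ankrd23 (-1.25) and Actn2 (-0.38). Ankrd1 (-1.20 ± 0.36, adjusted p = 0.08401) and Fhl1 (-0.56 ± 0.15, adjusted p = 0.05189) were not called in females. These counts depended on single libraries. The male call of Ankrd1 was lost without any of 7 of the 12 male libraries (adjusted p of 0.05054 to 0.07365) and that of Ankrd23 without any of 5. In females the calls of Ankrd23 and Actn2 were lost without any of 7 and 9 of the 12 female libraries. Without female MHS_RR replicate 3 they were -1.54 (adjusted p = 0.00565) for Ankrd23 and -0.43 (adjusted p = 0.03335) for Actn2.

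Ratios of abundant genes within a library barely depend on the scaling of that library. A total of 12 were tested with an exact permutation test, two-sided, with labels exchanged within each sex (400 arrangements, the smallest p being 0.005), and none passed after adjustment over the 12. The ratio of Fhl1 to Fhl2 had a median of 0.0468 (range 0.0392 to 0.0551) in controls of day 28 and 0.0656 (0.0547 to 0.0809) under MHS. On the log2 scale it was higher by 0.50 (exact permutation p = 0.01, adjusted p = 0.08), with 0.66 in males and 0.34 in females. The ratio of Ankrd1 to Ankrd23 went from a median of 2.66 to 3.45 (difference 0.49, exact permutation p = 0.035, adjusted p = 0.105). The ratio of Csrp3 to Tcap differed by 0.26 (exact permutation p = 0.05, adjusted p = 0.12) and that of Ttn to Actn2 by 0.01 (exact permutation p = 0.945, adjusted p = 0.945). The ratios with Ankrd2 are given as a description, since they change with the pseudocount. On the log2(TPM + 1) scale Ankrd2 to Ankrd23 differed by -0.41, whereas with a pseudocount of 0.1 TPM the difference was 0.31 and the median of the plain TPM ratio went from 0.000799 to 0.00118. Over the 8 ratios without Ankrd2 the adjusted p was 0.08 for Fhl1 to Fhl2 and 0.133 for Ankrd1 to Ankrd23. At day 56 the difference for Fhl1 to Fhl2 was 0.02 (exact permutation p = 0.69, adjusted p = 0.753) and that for Csrp3 to Tcap -0.38 (exact permutation p = 0.09, adjusted p = 0.18).

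**Figure D4:**
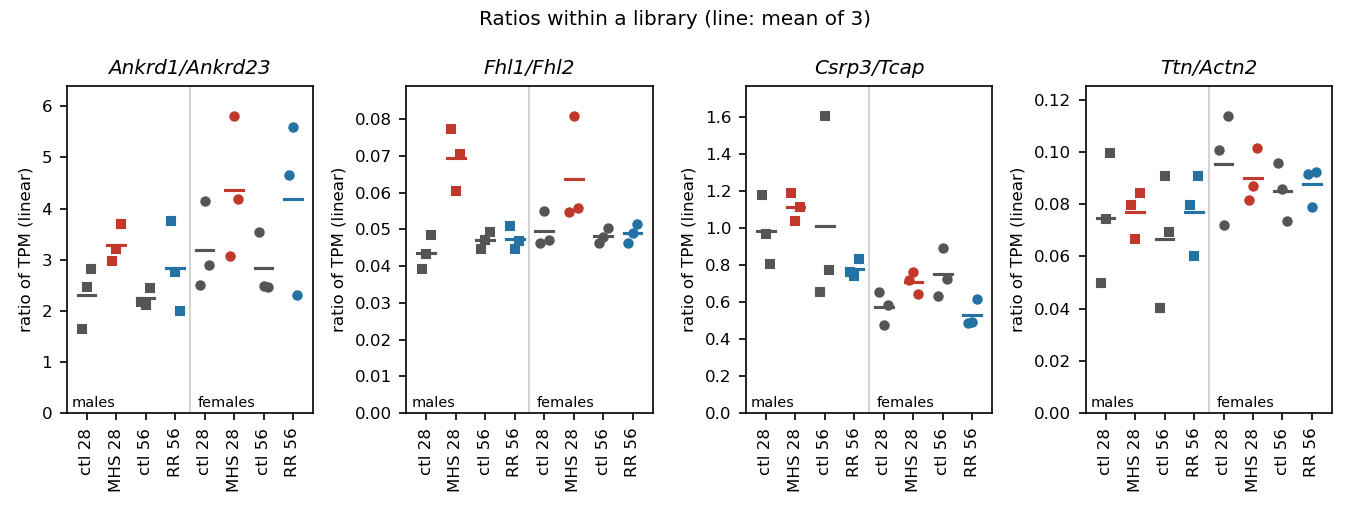
Ratio of TPM between 2 members of the same library (linear axis) in the 8 groups; points are libraries, lines the means of 3 (ctl, control; RR, MHS_RR). The ratio of Fhl1 to Fhl2 lies between 0.0547 and 0.0809 in the MHS libraries and between 0.0392 and 0.0551 in the controls of day 28, where the female groups overlap, and the other 3 ratios also overlap with the controls in at least 1 sex.

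The controls alone were compared by sex and by day. None of the members was called by limma between female and male controls, where 1.23% of all genes were called and 18.4% passed an unadjusted p of 0.05. Tcap was nearest, with 0.52 ± 0.14 higher values in females (adjusted p = 0.07537). Ankrd23 had the opposite sign, at -0.54 ± 0.15 (adjusted p = 0.08084), and Ttn was at 0.41 ± 0.18 (adjusted p = 0.2392). The call of Tcap and Ankrd23 depended on the libraries. Without male control day 28 replicate 3 they were 0.56 (adjusted p = 0.04455) and -0.59 (adjusted p = 0.04562). Tcap was also called without male control day 56 replicate 1, at 0.64 (adjusted p = 0.0228). The other 5 solidly measured members lay between -0.14 for Ankrd1 and 0.03 for Fhl1. Between day 56 and day 28 none of the 13058 genes was called by limma in either sex, with 2.99% in males and 3.83% in females at an unadjusted p under 0.05. Of the members only Csrp3 in males was among these, at -0.14 ± 0.06.

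The genes around titin were then examined by lists. Among Z-disc partners, 15 were tested (Myoz1 did not pass the filter). As the mean of both sexes 9 rose under MHS and none fell (8 in males and 4 in females), with a median of 0.24 against 0.04 for all genes, of which 11.6% were called higher. Filamin C (Flnc), a crosslinker repairing strained Z-discs, rose from a mean of 96.4 TPM to 199.6 TPM (1.03 ± 0.08, adjusted p = 1.945e-07). Myotilin (Myot) rose by 0.94 ± 0.19, the actinin-associated LIM protein Pdlim3 by 0.89 ± 0.14, Synpo2l by 0.87 ± 0.11 and Pdlim5 by 0.80 ± 0.08. At day 56 Pdlim5 was still higher (0.31 ± 0.08, adjusted p = 0.01754) and 3 others were lower, these being Mypn, Synpo2 and Ilk. Flnc was then at 100.4 TPM in both groups (adjusted p = 0.9847).

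The other lists are given as counts for the mean of both sexes, beside 11.6% of all genes called higher and 6.24% lower. Of 14 I-band partners 4 rose under MHS and none fell, with 2 called in males and 0 in females. They were the small heat shock proteins Hspb1 (0.49 ± 0.10) and Cryab (0.27 ± 0.05), the chaperone Hsp90aa1 (0.74 ± 0.22) and the ubiquitin ligase Trim54 (0.19 ± 0.05). The list's median was 0.08. Of 9 A-band and M-band partners 2 rose and 1 fell, a list too short to compare with the share over all genes. Myomesin 1 (Myom1) rose from 632 to 853 TPM (0.43 ± 0.08, adjusted p = 0.000532) while myomesin 2 (Myom2) fell from 581 to 434 TPM (-0.41 ± 0.08, adjusted p = 0.0008132), and myosin-binding protein C (Mybpc3) rose by 0.18 ± 0.06. Of 6 genes for titin splicing and phosphorylation only Prkg1, a cGMP-dependent kinase that phosphorylates titin, was called (0.81 ± 0.16, adjusted p = 0.00122). The titin splicing factor Rbm20 was at -0.03 ± 0.08 (adjusted p = 0.8773).

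Of 5 paralogs tested, 3 rose under MHS as the mean of both sexes, against 11.6% of all genes. They were Csrp2 (0.86 ± 0.18), Actn1 (0.67 ± 0.11) and Actn4 (0.26 ± 0.07), which are widely expressed outside cardiomyocytes. Within the sexes 3 were called in males and 0 in females, with medians of 0.40 and 0.11, and the difference between the sexes was called for none by limma. Csrp1 (0.15 ± 0.11, adjusted p = 0.3761) and Fhl3 (-0.02 ± 0.12, adjusted p = 0.9545) did not pass, and Fhl4, Fhl5 and Actn3 did not pass the filter. Of 20 tested targets of YAP and its partners, the TEAD factors that bind M-CAT elements, 7 rose and 2 fell, against 11.6% and 6.24% of all genes. Ctgf rose from 60.5 to 163 TPM (1.38 ± 0.18, adjusted p = 2.055e-05), Tgfb2 by 0.93 ± 0.14, Ccdc80 by 0.73 ± 0.10 and Axl by 0.47 ± 0.06, while Amotl2 fell by 0.33 on the log2 scale (SE 0.08). At day 56 none of these 20 was higher and 5 were lower, against 15.5% of all genes lower, a share that depends on the scaling.

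**Figure D5:**
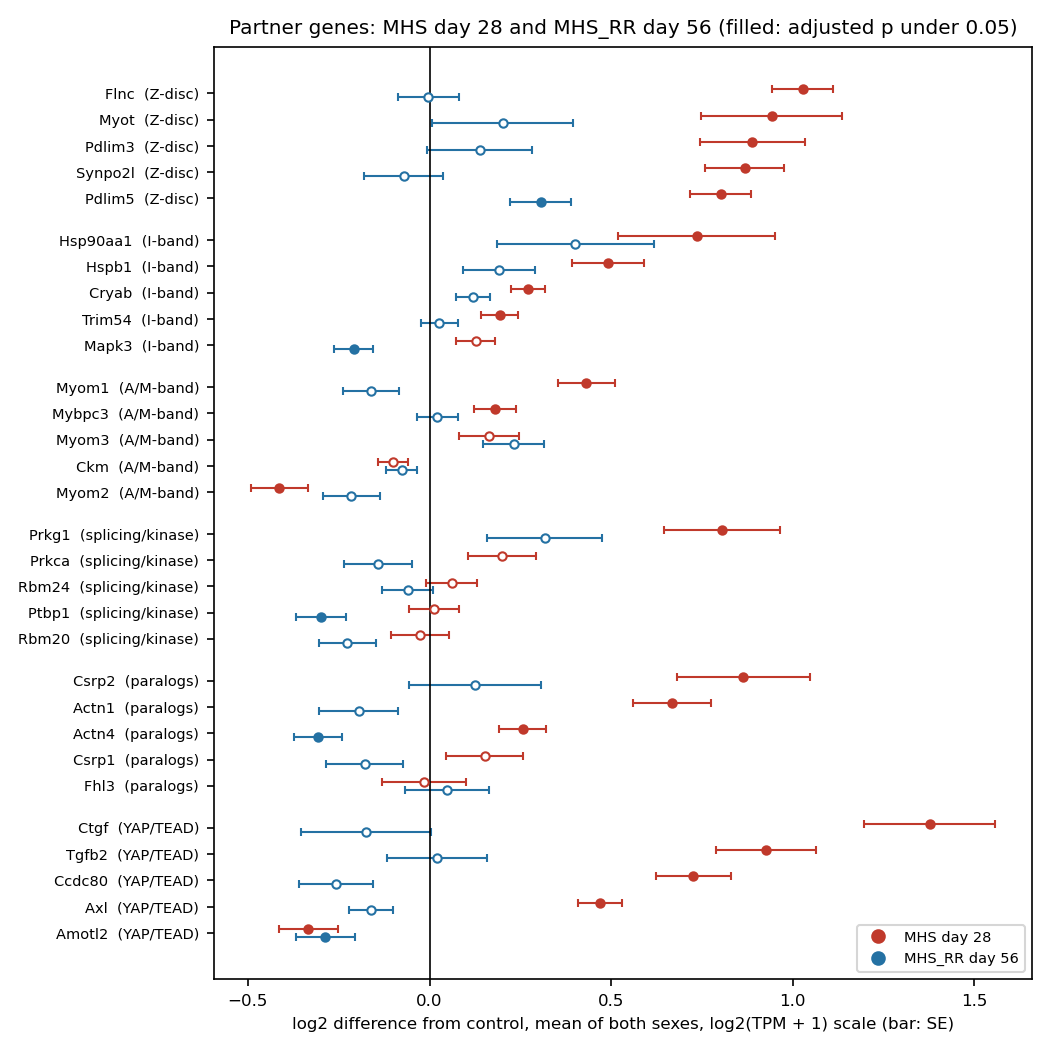
Log2 differences from control, mean of both sexes with SE, for up to 5 genes of each partner list with the lowest p at day 28; red, MHS at day 28; blue, MHS_RR at day 56; filled, adjusted p under 0.05. The 5 Z-disc genes lie between 0.80 and 1.03 at day 28, and of the genes drawn only Pdlim5 is called higher at day 56.

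Grouped by the time and treatment tags instead, 0 of the 8 members were called higher in MHS against control at day 28, and for MHS_RR at day 56, 5 were called lower than the control within both sexes. This follows from the exchange of the MHS libraries with the controls of day 56. All statements above hold for the groups given by the titles.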

How the data were processed

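TPM were deposited by the authors as 1 table of 24972 genes and 24 libraries, and every column was matched to a library by its title. The submitters' processing notes name STAR, Salmon and mm9 without versions. TPM holds no read counts, so depth and counting error are unknown. The reference used here was another build and served for promoter windows, gene overlaps, and GC content and length of the longest GENCODE transcript (12931 of 13058 tested genes, 99%).

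Genes with 1 TPM or more in 3 or more libraries were tested. A model with 1 mean for each of 8 groups was fitted to log2(TPM + 1) with limma 3.58.1 in R 4.3.3 (eBayes with intensity trend, 16 residual degrees of freedom), which understates changes of low genes. In all, 14 comparisons were made, two-sided, with Benjamini-Hochberg adjustment within each over 13058 genes. The step was tested on simulated data. Where nothing says that libraries came from separate mice, p-values cover the spread between libraries alone, which may be technical. No 2 libraries were identical.

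All 9 members were named, up to 5 genes of each partner list with the lowest p in MHS against control, and the 3 genes with the highest correlation to each member among those with a mean of at least 5 TPM. Other genes named at day 56 were chosen after their values were seen. Members and lists were chosen with earlier results of these data known. The alternatives covered grouping, pseudocount, filter, scaling, GC and length, weights, trend, replicate block and single libraries. Leaving out 5 libraries together was added after seeing the data.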

Additional observations from a re-analysis of the deposited data

Results flagged for a closer look

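The effect at day 56 differed from that at day 28 by a test of the difference itself for 5 members as the mean of both sexes. The MHS_RR effect minus the MHS effect was -1.29 for Ankrd1, -1.19 for Ankrd23, -0.65 for Fhl1, -0.42 for Actn2 and -0.23 for Csrp3. In males it was -1.38 for Ankrd1, -1.13 for Ankrd23, -0.73 for Fhl1 and -0.47 for Actn2. In females it was -1.25 for Ankrd23 and -0.38 for Actn2. Controls of the 2 days entered each difference, and their own change was not called for any member.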

How the results depend on the processing

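The rise of the 6 members at day 28 was counted as 6 in each sex or within 1.5 times of it under every alternative run except the grouping by tags. With that grouping the counts of members higher were 0 in males, 0 in females and 0 for the mean of both sexes at day 28, and 0 for the mean at day 56, where 5 were lower in males, 5 in females and 5 for the mean. Day 56 against day 28 controls then gave 6 higher in males and 6 in females, and female against male controls 1 higher and 1 lower. The values that changed sign under the tags at day 28 were -0.063 (males) and -0.0056 (mean) for Ankrd1, -0.055 (males) for Ankrd23, -0.14 (males) and -0.060 (mean) for Csrp3. They were -0.37 (females), -0.080 (males) and -0.23 (mean) for Tcap, and -0.096 (females), -0.093 (males) and -0.094 (mean) for Ttn. At day 56 they were -1.44 (males), -1.15 (females) and -1.29 (mean) for Ankrd1, -0.28 (females), -0.29 (males) and -0.29 (mean) for Csrp3, and -0.51 (females), -0.61 (males) and -0.56 (mean) for Fhl1. They were -0.15 (females), -0.066 (males) and -0.11 (mean) for Fhl2, and -0.39 (males) and -0.38 (mean) for Ttn. For female against male controls Actn2 was at -0.011.

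For the MHS_RR effect minus the MHS effect, the count of members lower in males was 2 with the 5 libraries left out, 2 with GC and length correction and 1 with median-of-ratios scaling, against 4. In females it was 0 with GC and length correction, 0 with median-of-ratios scaling, 0 without a filter, 0 in a fit to only the libraries compared, 1 without the intensity trend and 5 with array weights, against 2. With array weights 2 members were higher at day 56 in males and 2 in females, and 2 higher and 1 lower in female against male controls. Median-of-ratios scaling gave 1 higher at day 56 in females, quantile normalization 1 higher in female against male controls, and GC and length correction 5 higher for the mean at day 56. The cause was not tested.

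The values for the mean of both sexes at day 56 that changed sign were -0.028 for Ttn with the 5 libraries left out, 0.049 for Actn2 with GC and length correction and 0.012 for Actn2 with median-of-ratios scaling. For the MHS_RR effect minus the MHS effect, Ttn was at 0.046 with GC and length correction (0.042 in males and 0.049 in females), and Fhl2 in males at 0.063 with median-of-ratios scaling. Within the sexes at day 56, Ankrd1 in males was at -0.072 with the 5 libraries left out. Actn2 was at 0.015 in males and 0.083 in females with GC and length correction and at 0.036 in females with median-of-ratios scaling. Ttn in females was at 0.23, 0.083 and 0.011 with GC and length correction, median-of-ratios scaling and quantile normalization. In female against male controls Fhl1 was at -0.041 with median-of-ratios scaling and -0.014 with the 5 libraries left out. Actn2 was at -0.061 with median-of-ratios scaling and -0.036 with GC and length correction, and Csrp3 at 0.0014 with quantile normalization and 0.0045 with array weights. With a pseudocount of 0.1 TPM the ratio of Ankrd1 to Ankrd2 was at -0.21 at day 56 and that of Ankrd2 to Ankrd23 at 0.31 at day 28.

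No pairing of the libraries by replicate number was seen, but deviations within groups of 3 cannot exclude one. Deviations from the group means correlated between -0.283 and 0.263 over 12 pairs, with 1 over 0.1, and 3 of 12 libraries correlated best with their own number. With the replicate block the count lower in females was 1 for the MHS_RR effect minus the MHS effect. With the block and GC and length correction it was 0 in females and 2 in males, 5 members were higher for the mean at day 56, and the values of Actn2 and Ttn were those given above for the correction alone, with Actn2 at 0.049, 0.015 in males and 0.083 in females and Ttn at 0.23 in females at day 56, and Ttn at 0.046, 0.042 in males and 0.049 in females for the difference of effects.

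With each library left out in turn, the MHS_RR effect minus the MHS effect gave 0 to 4 members lower in females, 2 to 4 in males, and 0 to 1 higher for the mean. MHS_RR against control gave 1 to 4 higher for the mean and 0 to 1 in females, and female against male controls 0 to 1 higher and 0 to 1 lower. Ttn at day 56 ranged from -0.082 to 0.21 for the mean, -0.14 to 0.45 in males and -0.11 to 0.089 in females. In males at day 56 Ankrd1 ranged from -0.080 to 0.40 and Ankrd23 from -0.30 to 0.057, and Tcap from -0.041 to 0.54 for the difference of effects. Actn2 in female against male controls ranged from -0.024 to 0.046. At day 28 the ratios ranged from 0.37 to 0.60 for Ankrd1 to Ankrd23, 0.80 to 1.095 for Ankrd1 to Ankrd2, -0.49 to -0.31 for Ankrd2 to Ankrd23, 0.41 to 0.55 for Fhl1 to Fhl2 and -0.12 to 0.13 for Ttn to Actn2. Without female MHS day 28 replicate 1, Fhl1 to Fhl2 had an adjusted exact permutation p of 0.02 over the 12 ratios and 0.04 over the 8 without Ankrd2, the latter added after seeing the data. For Ankrd1 to Ankrd23 these were 0.045 and 0.06. At day 56 they ranged from -0.069 to 0.19 for Ankrd1 to Ankrd2, -0.0084 to 0.038 for Fhl1 to Fhl2 and -0.00699 to 0.28 for Ttn to Actn2. Counting depth is unknown, so its limit could not be given.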
